A study of Macaca mulatta with 33 samples.

Results

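The nuclear genes of oxidative phosphorylation were taken as every gene whose single symbol on the array begins with NDUF, UQCR, ATP5, COX followed by a digit, or is SDHA, SDHB, SDHC or SDHD. The rule found 71 genes on 120 probe sets, among 10489 genes measured. The rule also asks for a probe set above 6.2 on the log2 scale in 4 or more arrays, and it left none of the 71 out. By role, 24 encode subunits of complex I, 3 of complex II, 6 of complex III, 9 of complex IV and 14 of complex V. The remaining 15 are not subunits of the 5 complexes: 6 complex I assembly factors, 7 complex IV assembly factors, ATP5IF1, the inhibitor of ATP synthase, and NDUFA4L2, a paralog of NDUFA4. The name of the set, subunits, therefore covers 56 of its 71 genes. ATP5G1, an older symbol of the c-ring subunit gene ATP5MC1, is listed in the annotation under gene identifiers of its own and was counted as a separate complex V gene. COX4I1, NDUFB8 and COX6A1 share their probe sets with other genes and have no value of their own here.

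Oxidative phosphorylation is the last stage of respiration in the inner mitochondrial membrane. Complexes I and II pass electrons from NADH and succinate to ubiquinone, complex III passes them to cytochrome c and complex IV to oxygen. Complexes I, III and IV pump protons, and complex V, the ATP synthase, uses the gradient to make ATP. In the corpus luteum, the ovarian gland that makes progesterone, mitochondria also hold the enzyme that turns cholesterol into pregnenolone, and that step draws on NADPH and on the membrane potential.

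The tissue was corpus luteum isolated from adult female rhesus macaques, profiled on Affymetrix rhesus arrays. Untreated glands were taken on luteal day 10 (n = 8). In the other females, human chorionic gonadotropin (hCG), the hormone of early pregnancy that stimulates the gland, was given in escalating doses from luteal day 9. Their glands were sampled after 1 day (luteal day 10) or 6 days (luteal day 15). At each time 1 group received hCG alone, 1 received hCG with trilostane, an inhibitor of 3β-hydroxysteroid dehydrogenase and so of progesterone synthesis, and 1 received hCG, trilostane and the synthetic progestin R5020. Each of these 6 groups had n = 4. No untreated gland of day 15 was analysed, so 6 days of hCG and the later luteal day cannot be told apart. Trilostane acts on every tissue that makes steroids, and R5020 was given to the whole animal. The labels do not say whether the samples of a group came from separate animals, so p-values measure only the spread between these samples.

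The 33 arrays were counted as 32 samples, because the array names give a single sample number to replicates 3 and 5 of the day 15 hCG group, and their values were averaged. That pair differed with an SD of 0.201 log2 units over the probe sets, against a median of 0.476 for all array pairs. At day 15 the trilostane array numbered 4 and the R5020 array numbered 4 were closer still, with an SD of 0.192, although their labels put them in different groups. The day 15 comparisons of those 2 groups are given with both arrays, and then without them where that moves a count or a median. The array names show 3 array sets. Untreated glands span sets 1 and 2, day 10 hCG with and without trilostane lie in set 1, and day 10 R5020 lies in set 2. Day 15 hCG lies mainly in set 1, and both day 15 trilostane groups mainly in set 2. Set 3 holds 1 array of each day 15 group: hCG replicate 3 and the 2 near-identical arrays, on which its fitted difference rests. With those 2 arrays left out, the set 3 term takes up the averaged hCG sample of replicates 3 and 5. That sample then has no weight in the day 15 hCG mean, which rests on the other samples of its group. The set was a term in every fit except where stated. Sample values, group means, ranges and overlaps below are log2 intensities after median centring with the fitted set difference of each gene subtracted, so those of sets 2 and 3 rest on that estimate. Where leaving the set difference in changes what they show, the result without the subtraction is given as well, a check added after the data were seen. Members were higher in set 2 than in set 1 by a median of 0.14, and all genes by 0.11. Array medians lay between 6.14 and 6.32. Arrays give no read depth, and the number of arrays limits the precision. Of 7 luteal steroidogenic markers 4 were measured (STAR, HSD3B2, FDX1 and INHA). CYP11A1, LHCGR and SCARB1 had no kept probe set under their symbol alone, which does not show that their level was low. Mean deposited levels of the members over all arrays ran from 6.41 (ATP5PB) to 13.46 (ATP5MG), but probe sets differ in brightness and levels are compared only within a gene.

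Across the 7 groups the members varied little. The median gap between the highest and lowest group mean was 0.34 log2 units, where a difference of 1 is a 2-fold change, against 0.41 for all genes. The F test of any difference among the groups (limma, Benjamini-Hochberg adjusted p under 0.05 over all probe sets) called 3 of 71 members, where 17.9% of all genes were called. They were COX19 (adjusted p = 0.00203), NDUFA6 (adjusted p = 0.0152) and COX4I2 (adjusted p = 0.0286). With the set term left out the same test called 14 members, COX4I2 not among them. NDUFA6 was lost from this test under quantile normalization and with the replicate block (highest adjusted p over all settings 0.130, limma). The count was 9 without day 10 trilostane replicate 1, 8 without day 15 hCG replicate 1, and 5 without the near-identical day 15 arrays. It was also 5 without untreated replicate 9, without day 15 hCG replicate 3 or 4, and without day 15 R5020 replicate 3. The 17.9% of all genes belongs to the fit with all samples and the set term. No such share is given for the F test under these alternatives, so their counts have no background beside them.

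COX19, a copper-binding factor needed to build complex IV, rose most. Its log2 intensity in untreated glands ran from 9.24 to 9.78 with a median of 9.50. After 1 day of hCG it was 9.73, 9.91, 9.83 and 9.80, and after 6 days it was 10.24, 10.90, 9.76 (replicates 3 and 5) and 10.62. Thus 3 of 4 day 15 hCG samples lay above every untreated sample and replicates 3 and 5 lay among them. The rise over 6 days was 0.88 ± 0.18 (SE), or 1.84-fold (limma, adjusted p = 0.00341), and it stayed called under all 43 alternative settings run. COX19 also stood at 10.25 ± 0.36 (SD, n = 4) in day 15 hCG with trilostane and at 10.22 ± 0.25 (SD, n = 4) with R5020 added. The day 10 trilostane groups were lower, at 9.57 ± 0.19 (SD, n = 4) without R5020 and 9.65 ± 0.18 (SD, n = 4) with it.

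**Figure D1:**
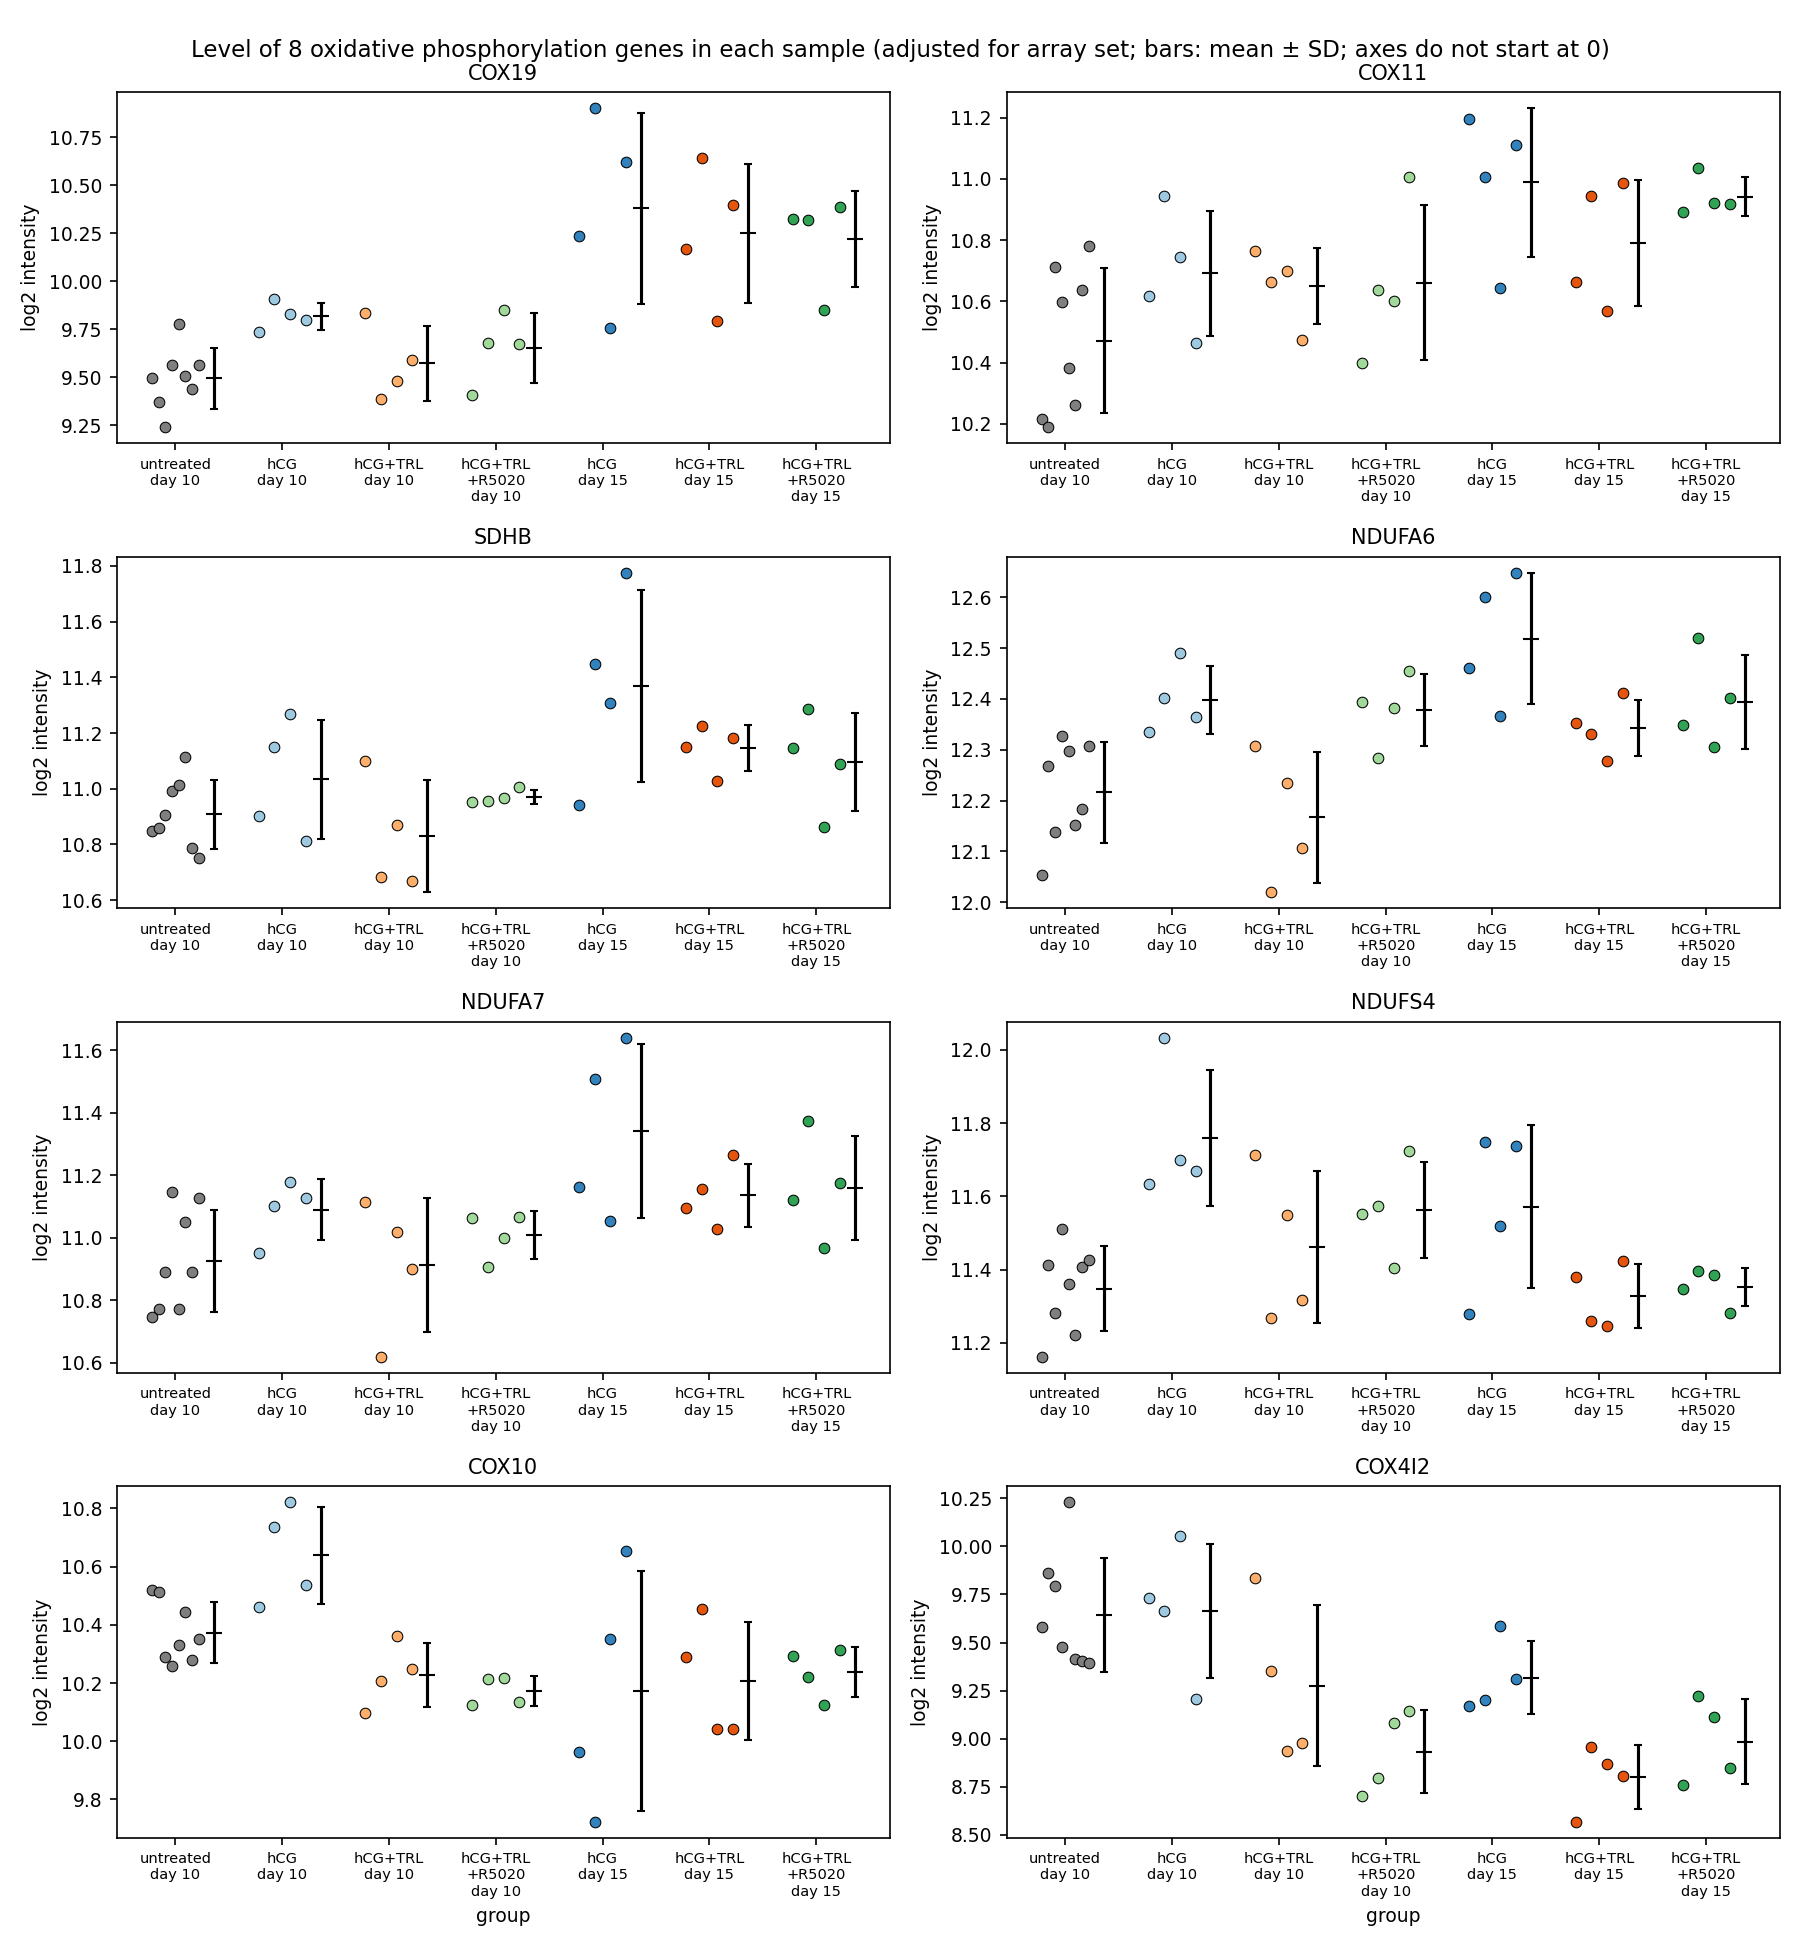
Log2 intensity (vertical axis) of 8 oxidative phosphorylation genes in each sample, by group (horizontal axis, TRL for trilostane). Points are samples after median centring and subtraction of the fitted array set difference, and bars are mean ± SD. COX19 stands highest in the 3 day 15 groups, where it spans 9.76 to 10.90, and COX4I2 is at or below 8.96 in all 4 samples of day 15 hCG with trilostane, which holds only with that subtraction.

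The comparison of 6 days of hCG with untreated day 10 gave more member calls than any other: 5 members rose and none fell, where 6.15% of all genes were called in either direction, 4.09% higher and 2.06% lower. The share of members called, 5 of 71, is close to that background. The rises were COX19, COX11, SDHB, NDUFA7 and NDUFA6. NDUFA6 falls outside the rule by which genes were chosen for naming and was picked after its values were seen, as were the genes below listed only because their groups do not overlap. All 4 day 15 samples lay above all untreated ones for 4 members (ATP5PD, COX18, NDUFA6 and NDUFAF1), where 4.12% of all genes did so, and none lay wholly below, where 2.17% did. With set differences left in, only COX11 and NDUFA6 lay wholly above, where 2.37% of all genes did. In bulk tissue more cells of a type and more RNA per cell cannot be told apart. In this comparison all 6 measured macrophage markers had estimates above 0 (median 0.43), as had both red cell markers (median 0.55), and none of these passed. Of 3 ovarian epithelium markers 1 passed, and it was lower (-1.17; limma, adjusted p = 0.00474). Of 4 luteal steroidogenic markers STAR passed as higher and HSD3B2 as lower. No marker of the other cell types passed. The part of these markers in the rises was not tested.

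COX11, the factor that delivers copper to the catalytic core of complex IV, stood in untreated glands at a median of 10.49, from 10.19 to 10.78. In the 4 day 15 hCG samples it was 11.20, 11.01, 10.64 and 11.11, so replicates 3 and 5 alone overlapped the untreated range, and with set differences left in no sample did. The rise was 0.52 ± 0.14 (SE; limma, adjusted p = 0.0325), and a second probe set of COX11 rose by 0.53 (limma, adjusted p = 0.0376). SDHB, the iron-sulfur subunit of complex II, ran from 10.75 to 11.11 in untreated glands, with a median of 10.88. It was 10.94, 11.45, 11.31 and 11.78 in the day 15 hCG samples, of which replicate 1 lay inside the untreated range. The rise was 0.46 ± 0.13 (SE; limma, adjusted p = 0.0330).

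NDUFA7, an accessory subunit of complex I, was 11.16, 11.51, 11.05 and 11.64 in the day 15 hCG samples. Untreated samples ran from 10.75 to 11.15 with a median of 10.89, so replicates 3 and 5 overlapped them. The rise was 0.42 ± 0.12 (SE; limma, adjusted p = 0.0399). NDUFA6, another accessory subunit of complex I, was 12.46, 12.60, 12.37 and 12.65 after 6 days of hCG, above all 8 untreated samples, which ran from 12.05 to 12.33 with a median of 12.23. The rise was 0.30 ± 0.075 (SE; limma, adjusted p = 0.0155), and of 4 further NDUFA6 probe sets 2 were called higher as well, by 0.86 and 0.48. Its day 10 hCG values, 12.34, 12.40, 12.49 and 12.36, also lay above every untreated sample, though not with set differences left in, and the rise at 1 day did not pass (0.18 ± 0.08 SE; limma, adjusted p = 0.188).

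Leaving out day 15 hCG replicate 2 or replicate 4 left 1 call of the 5, leaving out replicate 1 or replicates 3 and 5 gave 8, and leaving out untreated replicate 1, 2 or 3 gave 1, 2 and 3. No share of all genes called is given for the alternative settings, so the counts of this paragraph have no background beside them. COX11 was lost without untreated replicate 1 or 2 or without day 15 hCG replicate 1, 2 or 4. SDHB and NDUFA7 were lost without untreated replicate 1, 2 or 3 or day 15 hCG replicate 2 or 4. NDUFA6 was lost without untreated replicate 1 or day 15 hCG replicate 2 or 4. COX11, NDUFA7 and NDUFA6 were also lost under quantile normalization, COX11 and NDUFA7 with replicates 3 and 5 as separate samples, and COX11, NDUFA7 and SDHB with no level filter. SDHB was lost as well with the replicate number as a block and without the near-identical day 15 arrays. Within array set 1 the comparison gave 3 calls, and SDHB and NDUFA7 were not among them (highest adjusted p over all settings 0.179 and 0.187, limma).

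After 6 days of hCG the median log2 change was 0.15 for the 24 complex I genes, 0.30 for the 3 complex II genes, -0.02 for the 6 complex III genes, 0.12 for the 9 complex IV genes and 0.08 for the 14 complex V genes. It was 0.35 for the 7 complex IV assembly factors, against 0.14 for all members and 0.04 for all genes. In all, 55 of 71 members had an estimate above 0, as had 6068 of 10489 genes. Among those that did not pass were COX7A1, the heart and muscle isoform of a complex IV subunit (0.43 ± 0.17 SE; adjusted p = 0.152, limma), and SDHC, a membrane anchor of complex II (0.30 ± 0.16 SE; adjusted p = 0.332, limma). A second SDHC probe set, dim at a mean of 5.98, had a change of -0.19. The complex II median was 0.49 without day 15 hCG replicate 1 and 0.07 where all probe sets of a gene were averaged.

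Apart from SDHB, the subunits chosen for naming in every comparison did not pass after 6 days of hCG. In complex III, UQCRC1, a core subunit, changed by -0.14 ± 0.12 (SE; adjusted p = 0.579, limma) and UQCRFS1, the Rieske iron-sulfur protein, by -0.05 ± 0.11 (SE; adjusted p = 0.860, limma). In complex I, NDUFS1 and NDUFV1, subunits of its electron-entry arm, had changes of -0.07 ± 0.12 (SE; adjusted p = 0.815, limma) and 0.00 ± 0.13 (SE; adjusted p = 0.998, limma). SDHA, the flavoprotein of complex II, had a change of 0.07 ± 0.14 (SE; adjusted p = 0.852, limma) and ATP5F1B, the catalytic beta subunit of ATP synthase, of -0.16 ± 0.14 (SE; adjusted p = 0.602, limma). COX5A and NDUFA4, both subunits of complex IV, had changes of 0.10 ± 0.11 and 0.16 ± 0.10 (SE), and COX7A2 of 0.12 ± 0.17 (SE), none passing the test.

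The comparison of 1 day of hCG with untreated day 10 called 1 member higher and none lower, where 5.59% of all genes were called in either direction, 4.3% higher and 1.29% lower. It was NDUFS4, an accessory subunit needed to complete complex I. NDUFS4 ran from 11.16 to 11.51 in untreated glands, with a median of 11.38, and was 11.63, 12.03, 11.70 and 11.67 after 1 day of hCG. All 4 treated samples lay above all 8 untreated ones, and replicate 2 was the highest of them by 0.33. The rise was 0.41 ± 0.11 (SE; limma, adjusted p = 0.0319). It did not pass without untreated replicate 1 or 3, without hCG replicate 2 or 3, with the replicate block, with no level filter or within array set 1 (highest adjusted p over all settings 0.122, limma). The count was 3 without hCG replicate 1 and 2 without day 15 hCG replicate 4, again with no share of all genes beside it.

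NDUFS4 stood at 11.57 ± 0.22 (SD, n = 4) after 6 days of hCG and 11.33 ± 0.09 (SD, n = 4) with trilostane. The second smallest p at 1 day belonged to NDUFAF3, a complex I assembly factor, whose change of 0.34 ± 0.11 (SE) did not pass (limma, adjusted p = 0.0731). NDUFA6 and NDUFS4 were the only members whose day 10 hCG samples all lay above the untreated ones, where 5.95% of all genes did so, and none lay wholly below, where 1.47% did. Without the set subtraction, NDUFS4 alone did so, where 2.49% of all genes did. Estimates were above 0 for 60 of 71 members and for 6467 of 10489 genes, and the medians were 0.08 and 0.06. Complex I had a median of 0.12 and complex V one of 0.05.

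Between 1 and 6 days of hCG 1 member fell and none rose, where 7.73% of all genes were called, 3.19% higher and 4.54% lower. COX10, an enzyme in the synthesis of the heme of complex IV, was 10.46, 10.74, 10.82 and 10.54 at 1 day and 9.96, 9.72, 10.35 and 10.65 at 6 days. The groups overlapped through day 15 replicate 4. The fall was -0.47 ± 0.14 (SE; limma, adjusted p = 0.0408), and the second COX10 probe set changed by -0.34 (limma, adjusted p = 0.139). It was lost without day 10 hCG replicate 2, 3 or 4, without day 15 hCG replicate 1 or 2, without day 15 R5020 replicate 4 and within array set 1. The call was also lost with no set term, with the replicate block, with no level filter, with replicates 3 and 5 separate and over the mean of its probe sets (highest adjusted p over all settings 0.239, limma). Without day 15 hCG replicates 3 and 5, or without the near-identical arrays, 2 members were called, with no share of all genes given. No member's groups were free of overlap in this comparison, where 6% of all genes lay wholly higher and 6.86% wholly lower. COX19 had the next smallest p, with a change of 0.56 ± 0.19 (SE; limma, adjusted p = 0.0750).

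**Figure D2:**
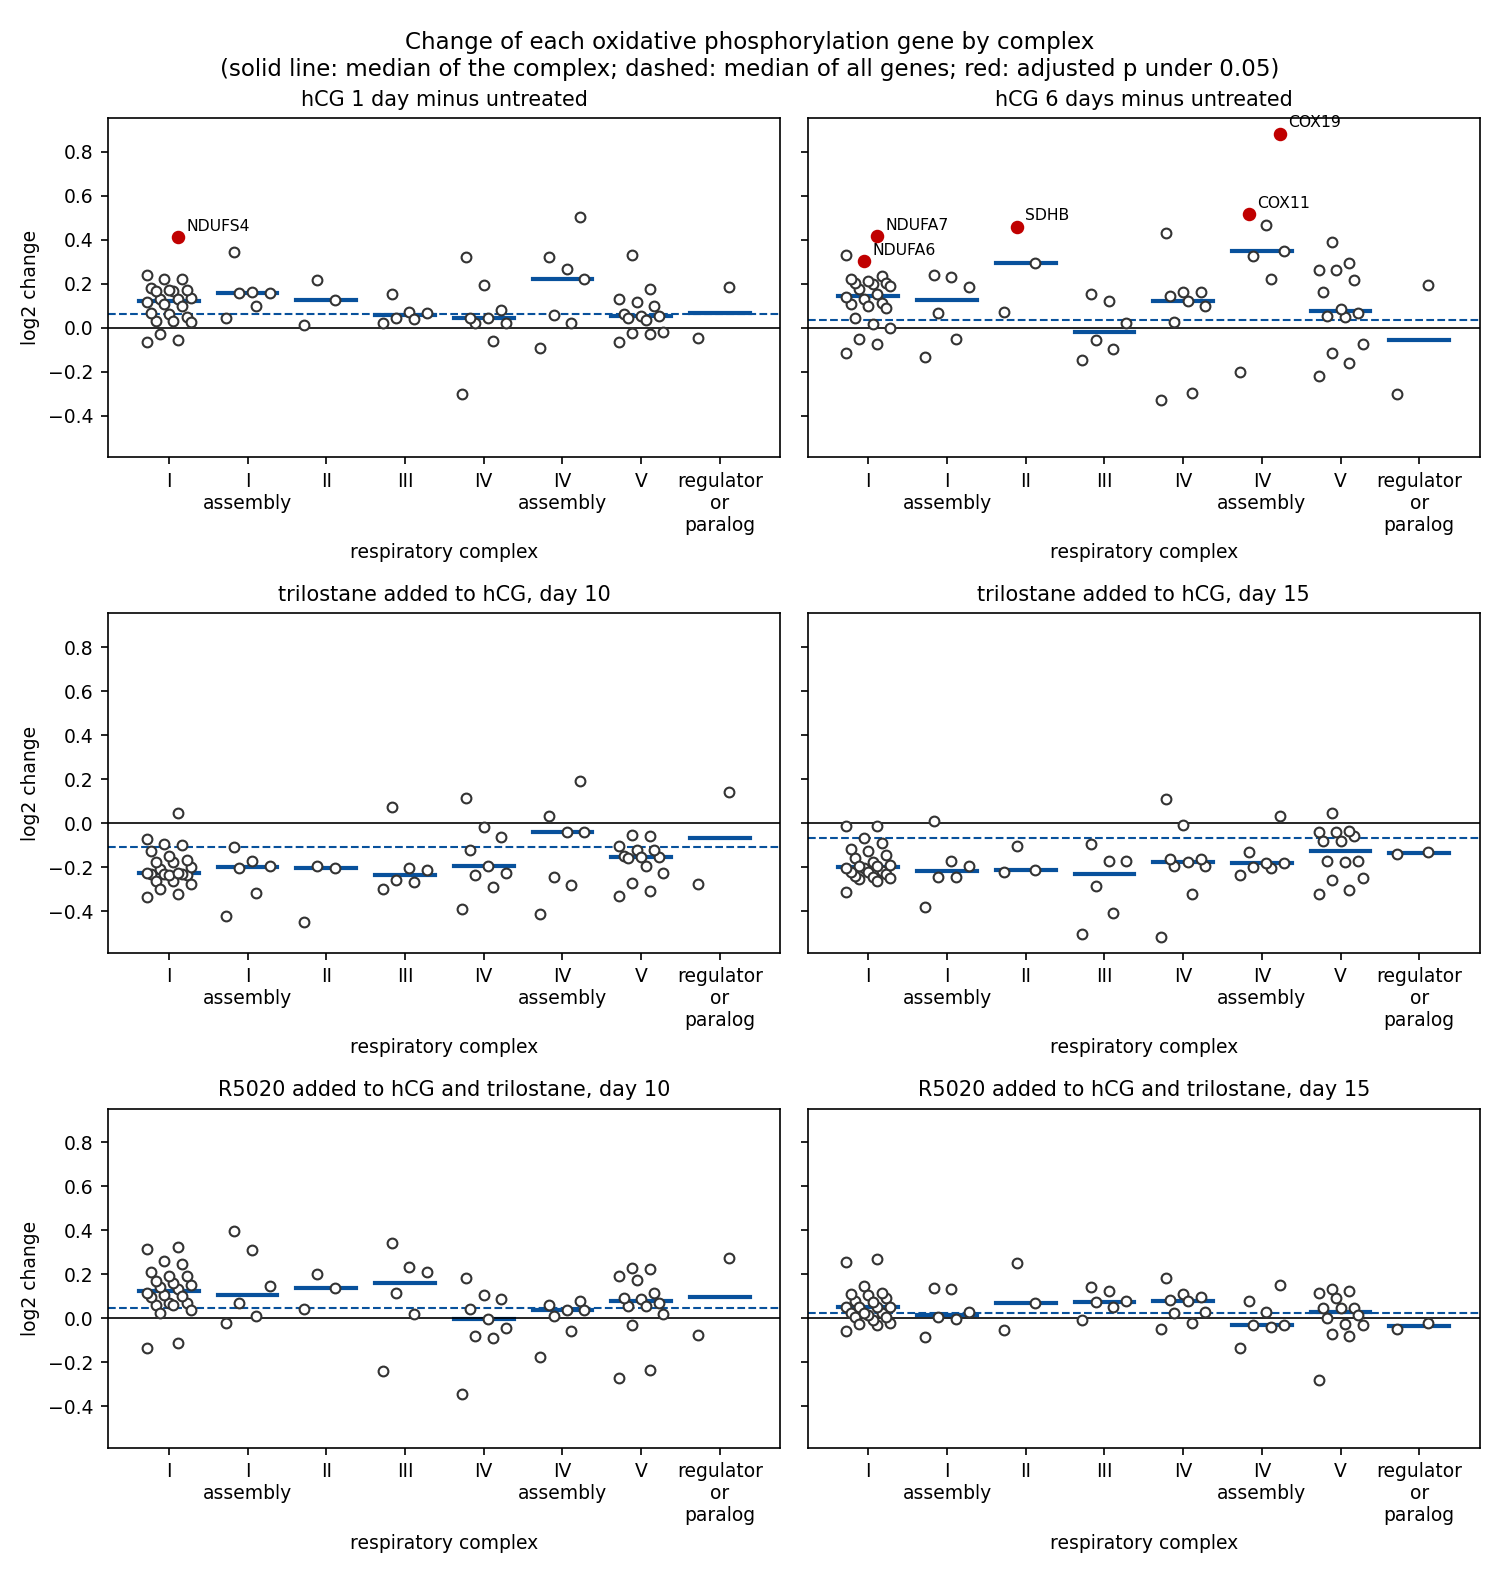
Log2 change (vertical axis) of each of the 71 members by complex or assembly class (horizontal axis) in 6 comparisons. Points are genes, red ones passed the test, solid lines are class medians and the dashed line is the median of all genes. Nearly all members lie below 0 where trilostane was added (65 of 71 at day 10 and 67 of 71 at day 15), and none of them passed. Of all genes 71.5% and 63.8% lie below 0 there.

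Trilostane added to 1 day of hCG, a comparison held within array set 1, left most members with estimates a little below 0 and no call. No member passed (limma, adjusted p at least 0.202), where 0.00953% of all genes were called, and 21 members had an unadjusted p under 0.05, where 17.4% of all genes did. Estimates were below 0 for 65 of 71 members (91.5%) and for 71.5% of all genes, and the medians were -0.20 and -0.11. The medians were -0.22 for complex I, -0.20 for complex II, -0.24 for complex III, -0.19 for complex IV, -0.15 for complex V and -0.04 for complex IV assembly factors. All 14 complex V genes and all 3 complex II genes had estimates below 0. After quantile normalization the medians were -0.09 for members and -0.04 for all genes, and 57 members were below 0. With no centring they were -0.15 and -0.05.

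SDHA had the largest of these estimates. It was 11.36, 11.35, 11.31 and 11.20 with hCG and 10.59, 10.84, 10.95 and 11.05 with trilostane added, so the groups did not overlap. The change of -0.45 ± 0.15 (SE) did not pass (limma, adjusted p = 0.202). ATP5F1D, the delta subunit of the ATP synthase head, changed by -0.31 ± 0.10 (SE; limma, adjusted p = 0.203) and ATP5F1B by -0.33 ± 0.14 (SE; limma, adjusted p = 0.342). ATP5IF1, which inhibits the ATP synthase when it runs backwards, changed by -0.27 ± 0.10 (SE; limma, adjusted p = 0.272). In all, 6 members lay lower in every trilostane sample than in any hCG sample (SDHA, COX10, ATP5F1B, ATP5IF1, ATP5MC3 and NDUFA6), where 7.06% of all genes did so, and none lay wholly higher, where 0.429% did.

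The 4 trilostane samples of day 10 differed among themselves. A mean deviation was taken for each complex as the mean over its genes of the sample's set-adjusted log2 value minus the untreated mean. This mean for complex I was 0.09 in replicate 1 and -0.26 in replicate 2, and for complex III 0.01 and -0.39. Over all genes it was 0.004 and -0.10, the highest and lowest of the group. The spread for complex I was 0.15 (SD, n = 4), against 0.05 (SD, n = 8) in untreated glands, or 0.10 (SD, n = 8) in untreated glands with set differences left in. Leaving out 1 sample at a time gave member medians from -0.27 to -0.14. In the day 15 hCG group replicate 1 had the lowest mean and replicate 4 the highest in each of the 5 complexes, for complex I -0.13 and 0.37. The same order held over all genes, at -0.01 and 0.12. The array titles of day 10 hCG samples and of untreated replicates 1 to 4 carry a reanalysis mark and those of day 10 trilostane samples do not. At day 10 that mark and trilostane therefore cannot be told apart. At day 15 hCG replicates 1 to 4 carry the mark, and no trilostane array does, with or without R5020. Only day 15 hCG replicate 5, averaged with replicate 3, lacks it, so mark and trilostane are nearly inseparable there as well.

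**Figure D3:**
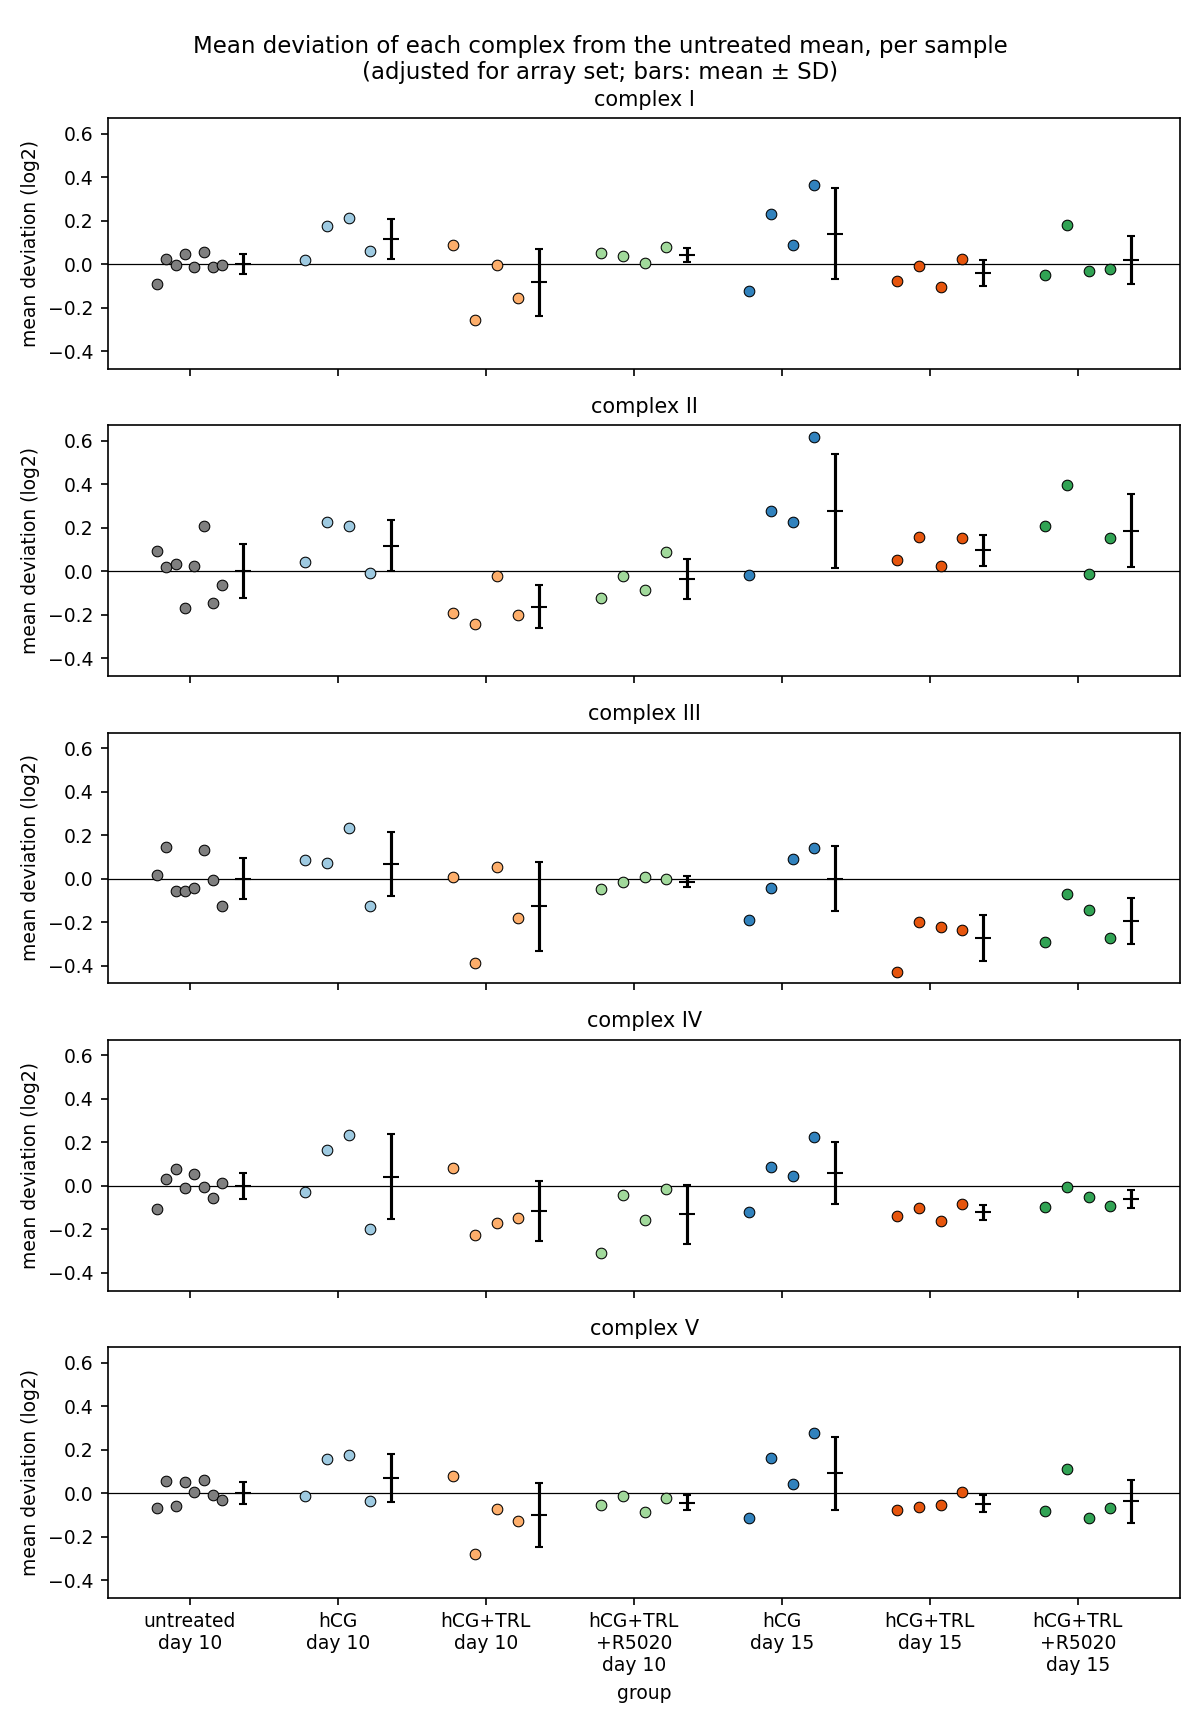
Mean deviation from the untreated mean (vertical axis, log2) of the subunit genes of each complex in each sample, adjusted for array set, by group (horizontal axis, TRL for trilostane). Points are samples and bars are mean ± SD. For complex I, day 15 hCG samples span -0.13 to 0.37 and untreated samples -0.09 to 0.06, and for complex III all 4 samples of day 15 hCG with trilostane lie at or below -0.20, or at or below -0.12 with set differences left in.

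Trilostane added to 6 days of hCG also left most estimates below 0 with no call. No member and no other gene passed (limma, 0% of all genes, member adjusted p at least 0.591), and 7 members had an unadjusted p under 0.05, where 6.68% of all genes did. Estimates were below 0 for 67 of 71 members (94.4%) and 63.8% of all genes, with medians of -0.18 and -0.07. The medians were -0.20 for complex I, -0.21 for complex II, -0.23 for complex III, -0.18 for complex IV and -0.13 for complex V. This comparison sets array set 2 mainly against set 1 and rests on the set term. With that term left out the medians were -0.05 for members and 0.02 for all genes, and 50 members were below 0. With the replicate block they were -0.06 and -0.02, and 40 members were below 0. Without the near-identical arrays they were -0.25 and -0.08, and 12 members had an unadjusted p under 0.05, where 8.28% of all genes did. In that fit the averaged hCG sample has no weight in the hCG mean. Under quantile normalization 63 members were below 0.

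UQCRQ, a small accessory subunit of complex III, had the smallest p. It was 12.76, 13.10, 12.84 and 12.86 with hCG and 12.44, 12.47, 12.42 and 12.59 with trilostane, with no overlap, and the change of -0.41 ± 0.12 (SE) did not pass (limma, adjusted p = 0.591). NDUFAF1, a complex I assembly factor, was 10.18, 10.29, 10.23 and 10.19 with hCG and 9.83, 9.90, 9.73 and 9.90 with trilostane. Its change was -0.38 ± 0.13 (SE; limma, adjusted p = 0.683). The groups did not overlap, lower with trilostane, for 8 members (ATP5PD, COX4I2, COX5A, NDUFA8, NDUFAF1, NDUFB10, NDUFV1 and UQCRQ), where 6.98% of all genes did so, and none lay wholly higher, where 2.72% did. With set differences left in, NDUFAF1, NDUFB10 and UQCRQ lay wholly lower, where 1.59% of all genes did, and COX7A2 wholly higher, where 1.43% did. Set-adjusted without the near-identical arrays, 21 members lay wholly lower, where 14% of all genes did, and none wholly higher. In the fit without those arrays the set term takes up the averaged hCG sample, so the hCG mean rests on the others.

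In the same day 15 samples 6 of 7 macrophage markers were measured, CD163 being the one that was not. Their summed level ran from 12.81 to 13.41 with hCG and from 13.36 to 14.26 with trilostane added, on the log2 scale. The 4 luteal steroidogenic markers ran from 15.71 to 15.86 with hCG and from 15.54 to 15.70 with trilostane. With set differences left in, macrophage markers ran from 12.36 to 13.09 with hCG and from 11.31 to 13.98 with trilostane, and luteal markers from 15.71 to 15.87 and from 15.66 to 15.83, so both overlapped. At day 10 macrophage markers overlapped, from 12.24 to 12.65 with hCG and from 11.90 to 13.20 with trilostane. The 3 pericyte and smooth muscle markers then all had estimates below 0 (median -0.36), as had the 3 ovarian epithelium markers (median -0.32) and 5 of 6 endothelial markers (median -0.17), none passing. The 4 luteal markers were also below 0 (median -0.08). Above 0 were 4 of 5 fibroblast markers (median 0.37) and both red cell markers (median 0.45), and none of these passed. Of all genes 71.5% were below 0 in that comparison. The part of these markers in the trilostane result was not tested.

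Members below 0 with trilostane at both times numbered 62 of 71 (87.3%), against 50.7% of all genes. These comparisons share no samples, but they share the set term and the reanalysis mark on nearly all of their hCG arrays. The count was 46 (64.8%) with no set term, against 31.5% of all genes, and 37 (52.1%) with the replicate block, against 37.5% of all genes. No member's trilostane effect differed between 6 days and 1 day (limma, 0% of all genes called), with 1 member at an unadjusted p under 0.05, where 3.45% of all genes were. That member was UQCRB, a complex III subunit, with a difference of -0.58 ± 0.27 (SE; limma, adjusted p = 1.00). Without the near-identical arrays no member passed either, and the 1 with an unadjusted p under 0.05 was COX10, at 0.60 ± 0.25 (SE; limma, adjusted p = 1.00). With both arrays COX10 had the next smallest p, with a difference of 0.45 ± 0.22 (SE; limma, adjusted p = 1.00).

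COX4I2, the lung isoform of complex IV subunit 4 that also serves hypoxic cells, was the complex IV subunit called in the F test. It ran from 9.39 to 10.23 in untreated glands, with a median of 9.53. It was 9.73, 9.66, 10.05 and 9.21 after 1 day of hCG and 9.84, 9.35, 8.94 and 8.98 with trilostane added. With R5020 as well it was 8.70, 8.80, 9.08 and 9.15. After 6 days it was 9.17, 9.20, 9.59 and 9.31 with hCG, 8.57, 8.96, 8.87 and 8.80 with trilostane, and 8.76, 9.22, 9.11 and 8.85 with R5020 as well. After set adjustment both day 15 trilostane groups and the day 10 R5020 group thus lay below every untreated sample. With set differences left in they did not: untreated samples ran from 9.47 to 10.92, day 15 trilostane samples from 9.26 to 9.65, day 15 R5020 samples from 9.31 to 9.92 and day 10 R5020 samples from 9.40 to 9.84. Those 3 groups lie mainly in array set 2, and in the fit COX4I2 was higher in set 2 by 0.69 (limma, adjusted p = 0.0312). Its F test call was lost with no set term, with the replicate block, with day 15 hCG replicates 3 and 5 as separate samples, without untreated replicate 6 and without day 15 trilostane replicate 1. No single comparison passed: the trilostane change was -0.39 ± 0.20 (SE; limma, adjusted p = 0.427) at day 10 and -0.52 ± 0.26 (SE; limma, adjusted p = 0.850) at day 15. NDUFA4L2, which takes the place of NDUFA4 in hypoxic cells, stood at 8.21 ± 0.19 (SD, n = 8) untreated and 7.77 ± 0.07 (SD, n = 4) in day 15 hCG with trilostane, and it passed in none of the 10 comparisons.

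R5020 added to hCG and trilostane gave no call at either time (limma, 0% of all genes). At day 10, where the comparison runs wholly across array sets, 56 of 71 members had estimates above 0, as had 6370 of 10489 genes. The medians were 0.09 for members and 0.05 for all genes. With no set term they were 0.26 and 0.16. No member had an unadjusted p under 0.05, where 2.91% of all genes did. ATP5IF1 and ATP5MC3 lay higher in every R5020 sample than in any trilostane sample, where 5.02% of all genes did so, and no member lay wholly lower, where 2.25% did. With set differences left in, 21 members lay wholly higher, where 19.3% of all genes did. The smallest p values belonged to NDUFAF2, a complex I assembly factor (0.31 ± 0.16 SE; adjusted p = 1.00, limma), and NDUFB4, an accessory subunit of complex I (0.32 ± 0.16 SE; adjusted p = 1.00, limma).

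At day 15, 49 of 71 members had estimates above 0 after R5020, as had 6096 of 10489 genes. The medians were 0.05 for members and 0.02 for all genes. Within array set 2, without the near-identical arrays, the medians were 0.07 and 0.03. NDUFV1 was 9.56, 9.74, 9.75 and 9.76 with trilostane and 9.82, 10.24, 9.94 and 9.89 with R5020, with no overlap, and its change of 0.27 ± 0.13 (SE) did not pass (limma, adjusted p = 1.00). NDUFV3, a complex I accessory subunit near the level threshold, changed by 0.26 ± 0.10 (SE; limma, adjusted p = 1.00). In these 2 groups 2 members had an unadjusted p under 0.05, where 3.99% of all genes did. NDUFAF1, NDUFV1 and NDUFV3 lay higher in every R5020 sample than in any trilostane sample, where 2.17% of all genes did so, and COX20, a complex IV assembly factor, lay lower, where 1.22% did. Without the near-identical arrays 8 members lay wholly higher, where 5.87% of all genes did, and no member had an unadjusted p under 0.05. The R5020 effect did not differ between the times for any member (limma, 0% of all genes called). With R5020 and trilostane against 6 days of hCG alone, 64 of 71 members were below 0 with a median of -0.13. Of all genes 59.3% were below 0, with a median of -0.04. With no set term 41 were below 0 and the medians were -0.02 and 0.04, and with the replicate block 39 were below 0 and the medians were -0.04 and 0.01. Without the near-identical arrays, in a fit that again gives the averaged hCG sample no weight, 57 were below 0 with a median of -0.16. Of the members, 12 then lay wholly lower, where 8.69% of all genes did. None passed (limma, 0% of all genes). ATP5MG, COX20, NDUFAF1 and UQCRQ lay wholly lower, where 3.55% of all genes did so, and none wholly higher, where 1.44% did. Without the set subtraction, COX20 alone lay wholly lower, where 1.29% of all genes did. The lowest p values were those of UQCRQ (-0.33 ± 0.12 SE; adjusted p = 1.00, limma) and ATP5PD, a peripheral stalk subunit of ATP synthase (-0.28 ± 0.11 SE; adjusted p = 1.00, limma).

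The genes that build and serve the complexes were examined in lists of their own. Of 28 further assembly factors 19 were measured. At 1 day of hCG 3 rose, where 4.3% of all genes did, and at 6 days 2, where 4.09% did, and none fell. SURF1, a complex IV assembly factor, ran from 11.45 to 11.84 in untreated glands and was 11.96, 12.04, 12.13 and 12.08 after 1 day of hCG, without overlap. Untreated glands reached 12.20 with set differences left in, and the groups then overlapped. Its rise was 0.43 ± 0.09 (SE; limma, adjusted p = 0.00765), and at 6 days it was 0.33 ± 0.09 (SE; limma, adjusted p = 0.0314). UQCC1, which helps assemble complex III, rose by 0.69 ± 0.18 (SE; limma, adjusted p = 0.0220) at 1 day. TMEM126B, a complex I assembly factor, rose by 0.45 ± 0.13 (SE; limma, adjusted p = 0.0331) at 6 days. With trilostane the medians of the 19 genes were -0.20 at day 10 and -0.24 at day 15, with no call.

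The regulators of mitochondrial biogenesis held few calls. PPARGC1A, the coactivator that drives respiratory gene transcription, ran from 4.87 to 5.53 in untreated glands, below the level threshold of 6.2. It was 6.26, 6.88, 5.71 and 6.58 after 6 days of hCG, above every untreated sample. No day 10 array exceeded the threshold and 8 day 15 arrays did, so PPARGC1A was kept only through the groups where it is high, and its levels are a description with no test. At day 15 PPARGC1A was 5.69, 7.25, 5.72 and 6.44 with trilostane and 6.48, 6.49, 5.46 and 6.36 with R5020 added. Its relative PPARGC1B fell by 0.41 ± 0.10 (SE; limma, adjusted p = 0.0200) at 1 day of hCG, and PPRC1, another member of that family, fell by 0.60 ± 0.13 (SE; limma, adjusted p = 0.00446) from 1 to 6 days. Of all genes 1.29% were called lower at 1 day and 4.54% from 1 to 6 days. NRF1 and TFAM, transcription factors for nuclear and mitochondrial respiratory genes, had changes of 0.11 ± 0.09 and -0.05 ± 0.09 (SE) after 6 days, which did not pass. Of the 19 genes of this list 13 were measured. Leaving PPARGC1A aside, none of them passed the test after 6 days of hCG.

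Of 75 mitochondrial ribosomal protein genes 60 were measured, and 2 rose at 1 day of hCG, where 4.3% of all genes did, and 1 at 6 days, where 4.09% did. MRPL18 and MRPL4 rose by 0.68 ± 0.10 (SE; limma, adjusted p = 0.000287) and 0.80 ± 0.18 (SE; limma, adjusted p = 0.00965) at 1 day. Between 1 and 6 days, a comparison that shares the 1 day samples, they fell by 0.49 ± 0.10 (SE; limma, adjusted p = 0.00425) and 1.07 ± 0.18 (SE; limma, adjusted p = 0.000572). In that comparison MRPS18A and MRPL48 rose by 0.85 ± 0.22 (SE; limma, adjusted p = 0.0180) and 0.43 ± 0.12 (SE; limma, adjusted p = 0.0380). It called 3.19% of all genes higher and 4.54% lower. MRPL48 rose by 0.56 ± 0.12 (SE; limma, adjusted p = 0.00471) after 6 days. With trilostane 57 of the 60 were below 0 at day 10 (median -0.22) and 51 at day 15 (median -0.18), with no call. Of all genes 71.5% and 63.8% were below 0. The 14 measured citric acid cycle and pyruvate dehydrogenase genes, of 22, held no call in any comparison, and their trilostane medians were -0.17 at day 10 and -0.28 at day 15.

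Electron carriers and their donors outside the complexes held 10 measured genes of 15. GPD2, the glycerol phosphate dehydrogenase that feeds ubiquinone, ran from 8.33 to 8.75 in untreated glands and was 8.00, 8.39, 7.67 and 7.56 after 1 day of hCG, of which replicate 2 overlapped the untreated range. It fell by 0.66 ± 0.18 (SE; limma, adjusted p = 0.0340) and from 1 to 6 days rose by 0.80 ± 0.19 (SE; limma, adjusted p = 0.00867). Of all genes 1.29% were called lower at 1 day and 3.19% higher from 1 to 6 days. CYC1, cytochrome c1 of complex III, had changes of 0.18 ± 0.13 (SE; limma, adjusted p = 0.453) at 1 day and 0.14 ± 0.12 (SE; limma, adjusted p = 0.633) at 6 days.

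Glycolysis was represented by 17 measured genes of 22. At 1 day of hCG 3 rose and none fell, where 4.3% and 1.29% of all genes did. At 6 days 2 rose and 2 fell, where 4.09% and 2.06% of all genes did. ALDOC, an aldolase isoform, rose by 1.01 ± 0.21 (SE; limma, adjusted p = 0.00465) at 1 day and by 0.91 ± 0.20 (SE; limma, adjusted p = 0.00607) at 6 days. HK1, the hexokinase bound to mitochondria, fell by 0.93 ± 0.18 (SE; limma, adjusted p = 0.00245) after 6 days. With trilostane 16 of the 17 were below 0 at day 10 (median -0.27) and 12 at day 15 (median -0.12), with no call, where 71.5% and 63.8% of all genes were below 0.

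**Figure D4:**
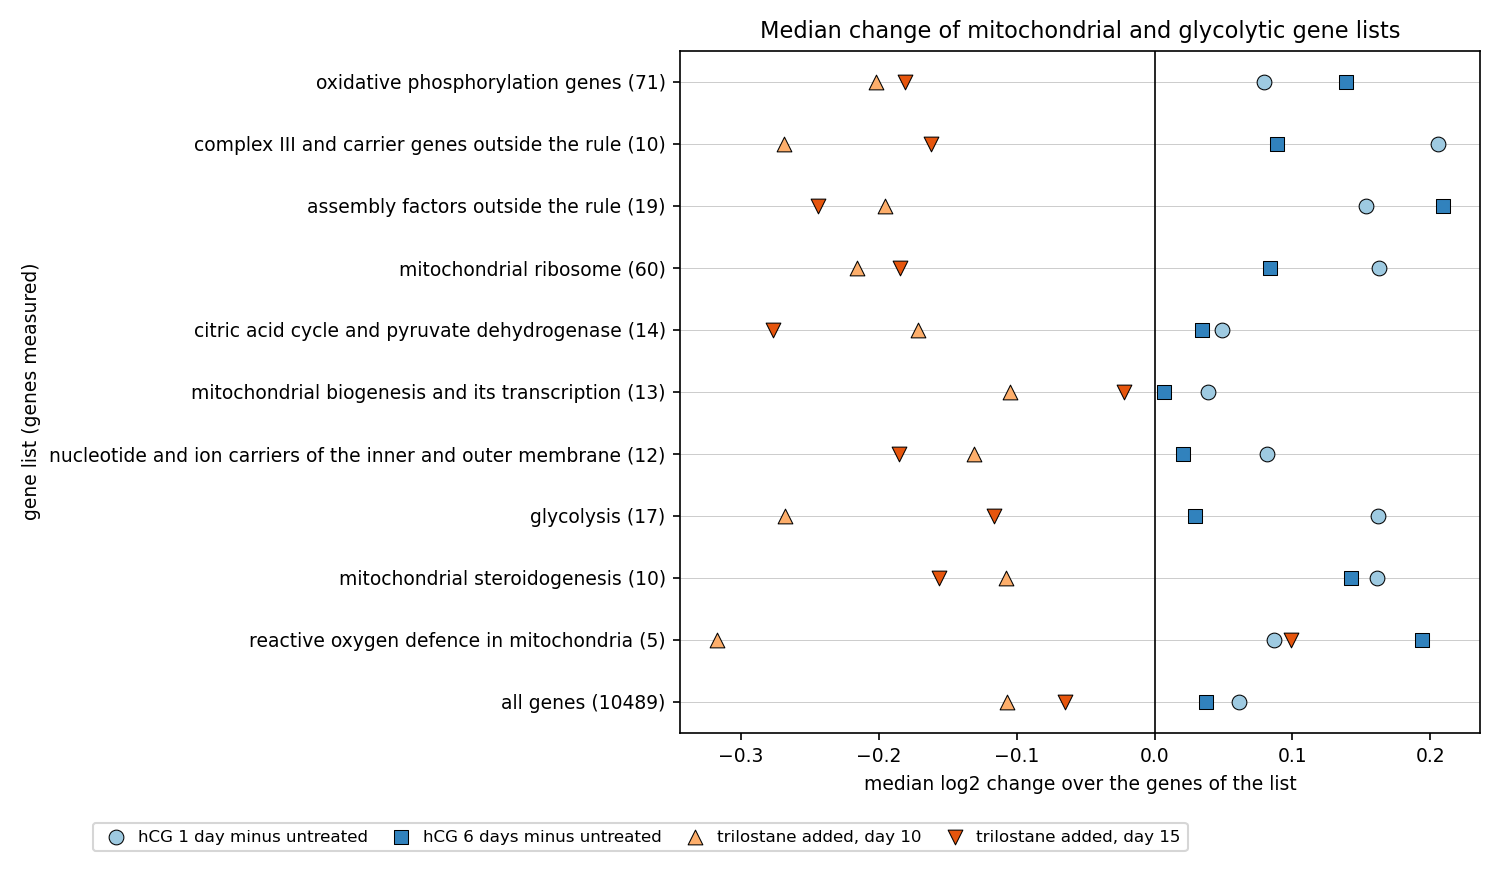
Median log2 change (horizontal axis) over the measured genes of each list (vertical axis, number of genes in brackets) in 4 comparisons. Each symbol is 1 comparison. The trilostane medians of the 71 oxidative phosphorylation genes, -0.20 and -0.18, lie further below 0 than those of all genes, -0.11 and -0.07, as do those of the mitochondrial ribosome, -0.22 and -0.18.

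Mitochondrial steroidogenesis was measured through 10 of 12 genes, and after 6 days of hCG 4 rose and 1 fell, where 4.09% and 2.06% of all genes did. STAR, which carries cholesterol into mitochondria, rose by 0.30 ± 0.05 (SE; limma, adjusted p = 0.000700), and TSPO, an outer membrane protein that binds cholesterol, by 0.44 ± 0.11 (SE; limma, adjusted p = 0.0195). HSD3B2, the enzyme trilostane inhibits, fell by 1.00 ± 0.28 (SE; limma, adjusted p = 0.0318), from 13.33 ± 0.28 (SD, n = 8) to 12.33 ± 0.46 (SD, n = 4). TSPO is also the gene called in the list of membrane carriers, of which 12 of 17 were measured. Among 5 measured genes of 9 for mitochondrial defence against reactive oxygen, SOD1, a superoxide dismutase, rose by 0.47 ± 0.13 (SE; limma, adjusted p = 0.0377) after 6 days.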

How the data were processed

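RNA of 33 corpora lutea arrays was analysed as 32 samples in 7 groups. The deposited values are log2 intensities per probe set in the series' value table. The sources used here do not name the background correction, summarization or normalization. Gene names come from GEO's platform annotation, which can be old. Of 52865 probe sets 99 controls were left out and 28797 passed the level filter (above 6.2 in 4 or more arrays), of which 17564 carry 1 symbol, 240 several and 10993 none. Arrays were centred on their median and fitted in limma 3.58.1 (R 4.3.3) with group and array set as terms and a mean-variance trend, leaving 23 residual degrees of freedom. P-values are two-sided and were adjusted by Benjamini-Hochberg over all probe sets kept. Each gene was read from its brightest probe set. Sample values were printed after subtracting each gene's fitted set difference. The script was tested on simulated data.

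The members and the gene lists were chosen with earlier results of these data known. Genes were named from a fixed set of subunits and, in each comparison, up to 4 called rises and 4 called falls, or the 2 smallest p where fewer than 2 passed. From other lists the 2 smallest adjusted p among those passing were to be named in each list and comparison. That was not fully kept to. GPI and CYP11B1 at 1 day of hCG and FDXR from 1 to 6 days, for example, were left out above, and some genes outside that choice, such as MRPS18A, were named. No sequence or promoter was analysed here. The alternatives tried were replicates 3 and 5 separate, the near-identical arrays left out, no set term, no centring, quantile normalization, no level filter or one at 7, no variance trend, a replicate block, a mean over probe sets, single array sets and each sample left out.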

Additional observations from a re-analysis of the deposited data

Results flagged for a closer look

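In set-adjusted values, of 238 tests of a stray sample within a group, over 29 named genes and the 5 complex means, 12 marked a sample whose gap to the others was large for its group, and chance marks about 1 in 20. In untreated glands NDUFA4 was lowest in replicate 1 at 11.68, NDUFA4L2 highest in replicate 4 at 8.64 and SDHC highest in replicate 7 at 10.68. After 1 day of hCG NDUFS4 was highest in replicate 2 at 12.03 and NDUFS1 lowest in replicate 3 at 11.12. In day 10 R5020 samples ATP5F1B was highest in replicate 2 at 12.33 and UQCRB in replicate 4 at 9.73. In day 15 trilostane samples NDUFV1 was lowest in replicate 1 at 9.56, and so was the complex III mean deviation at -0.43. In day 15 R5020 samples COX19 was lowest in replicate 3 at 9.85. ATP5PD was highest in replicate 2 of that group at 11.94, and so was the complex I mean deviation at 0.18.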

How the results depend on the processing

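No called member among those chosen for naming changed sign under the alternatives run. The signs of NDUFA6 and of the called genes of the other lists were not followed there. Of 2125 complex medians 104 had the opposite sign to the reported one, 6 of them where the reported median was 0.1 or more in size. With no set term the all-gene median was -0.01 for 6 days of hCG, 0.02 for trilostane at day 15 and 0.04 for R5020 and trilostane against hCG. Counts of members called moved by over 1.5 times as follows, given without the share of all genes called under each setting. With day 15 hCG replicates 3 and 5 separate, 6 days of hCG gave 3, 6 against 1 day 0 and the F test 5. Without the near-identical arrays 6 against 1 day gave 2 and the F test 5. With no set term these gave 0 and 14. Quantile normalization gave 3 at 6 days. With no level filter 1 day gave 0, 6 days 2 and 6 against 1 day 0. Within array set 1 they gave 0, 3 and 0. Averaging probe sets gave 7 in the F test. Leaving out 1 sample at a time gave 0 to 3 at 1 day, 1 to 8 at 6 days, 0 to 2 for 6 against 1 day, 2 to 9 in the F test, and 0 in the other 7 comparisons. Whether replicate numbers pair the samples is not known. Deviations of 84 same-numbered pairs correlated at a median r of 0.0157, from -0.562 to 0.474, with 22 pairs over 0.1. Differently numbered pairs had a median r of 0.00734. These values do not settle whether the samples are paired. With the replicate block 1 day of hCG gave 0 calls and the F test 1, and 40 members were below 0 with trilostane at day 15. Complex medians moved in 11 cases and stayed within their genes' median SE in 2114. With no set term the day 10 R5020 medians were 0.31 for complex I and 0.29 for complex IV, and the day 15 trilostane median of complex IV was -0.01. Groups of 4, and a set term that rests mainly on the untreated glands, limit the precision.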
